A study of Mus musculus with 8 samples.

Results

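Cytosolic ribosomal protein genes were taken as the rows whose symbol was Rpl or Rps followed by a number or the letter a, including the Rplp stalk genes and symbols with short letter endings. Names with -ps and the Rps6k kinases were left out. The rule found 90 of the 19950 genes in the table: 46 genes of the large subunit, 31 of the small subunit, 12 paralogues or retrocopies, and Rps19bp1, which encodes a protein that binds Rps19 and is not itself a ribosomal protein. Bulk RNA sequencing was done on whole embryos of the mouse at embryonic day 6.5, about the onset of gastrulation. In the mutant group were 4 embryos of the genotype Axin1;Axin2 mutant, and 4 WT embryos stood against them. Axin1 and Axin2 are scaffolds of the complex that degrades beta-catenin, the effector of canonical WNT signalling. The labels give neither the structure of the mutant alleles nor the litters nor any pooling of embryos, so the tests measure only the spread between these libraries. Replicates are called mutant or WT replicate 1, 2, 4 and 5, as numbered in the labels, and values are given in that order.

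The ribosome is the machine that makes protein. Its small subunit holds and decodes the mRNA, and its large subunit joins the amino acids and carries the exit tunnel of the new chain. Each subunit is built from ribosomal RNA and a fixed set of proteins, so most of these genes are transcribed in every cell. Many of their mRNAs begin with a run of pyrimidines, through which TOR signalling and Larp1 control their translation. Their abundant mRNAs have also been copied back into the genome many times as processed pseudogenes, intronless copies that lie far from the parent gene. In mice, loss of 1 copy of several of these genes causes defects of the skeleton, pigmentation or blood, and in humans such mutations cause Diamond-Blackfan anaemia.

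Promoters of 67 members were found in RefSeq sequence of build GRCm38.p6. A gene was counted if any of its promoters held the match. A start in C with at least 4 further C or T directly after it was present at the annotated start in 14 members (20.9%). Of all 27025 genes with a promoter 3.01% had it. The letters CCGGAAG, on either strand, lay within 250 bases before to 50 after the start in 26 members (38.8%), against 9.93% of all. TATAAA, on either strand, lay there in 7 members (10.4%), against 15.7% of all. Overlaps between these 3 matches were not removed. These are descriptions of sequence, and no factor was measured. Windows of 100 bases before and 30 after the start are shown for 3 genes with such a start and for Rps2 and Rpl10l, the members that passed the test described later, with capitals marking the pyrimidine run. Rps2 and Rpl10l had no such run directly at the annotated start, the only place where it was looked for. The Rps2 window holds the letters cttctt a few bases after that start.
Rps6, chr4:86857338-86857467, minus strand: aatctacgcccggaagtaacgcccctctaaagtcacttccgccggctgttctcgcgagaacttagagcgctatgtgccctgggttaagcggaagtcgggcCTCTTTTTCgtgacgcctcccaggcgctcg
Rplp2, chr7:141447551-141447680, plus strand: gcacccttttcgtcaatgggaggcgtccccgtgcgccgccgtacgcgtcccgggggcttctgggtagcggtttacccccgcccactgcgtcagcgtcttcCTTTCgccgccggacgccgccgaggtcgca
Rpl35, chr2:39005102-39005231, minus strand: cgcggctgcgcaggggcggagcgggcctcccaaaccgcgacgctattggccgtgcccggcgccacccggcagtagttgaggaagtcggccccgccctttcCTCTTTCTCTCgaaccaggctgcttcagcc
Rps2, chr17:24719963-24720092, plus strand: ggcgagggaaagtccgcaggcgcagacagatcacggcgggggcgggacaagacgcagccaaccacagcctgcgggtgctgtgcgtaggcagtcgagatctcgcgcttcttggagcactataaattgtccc
Rpl10l, chr12:66284372-66284501, minus strand: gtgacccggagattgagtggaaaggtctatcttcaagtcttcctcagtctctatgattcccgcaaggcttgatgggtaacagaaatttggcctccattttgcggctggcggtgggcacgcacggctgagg

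The second set of sequences shows how alike a ribosomal protein gene and its pseudogene copies can be. Of the genes measured here, 262 that GENCODE M21 of GRCm38 annotates as pseudogenes shared at least 100 stretches of 31 bases with a member. At least 1 such copy was found for 71 of the 90 members. Rps2-ps13 differed from the Rps2 mRNA at 7 of 882 aligned bases (99.2% identical), and Rpsa-ps10 from the Rpsa mRNA at 6 of 885 (99.3% identical). Windows of 80 bases are shown, with the differing bases in capitals. How reads that fit several places were counted is not stated, and the cDNA kit does not mark strand, so levels of genes with such copies are uncertain.
Rps2, chr17:24720280-24720359, plus strand: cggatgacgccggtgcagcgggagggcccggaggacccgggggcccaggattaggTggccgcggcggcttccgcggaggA
Rps2-ps13, chrX:52898592-52898671, plus strand: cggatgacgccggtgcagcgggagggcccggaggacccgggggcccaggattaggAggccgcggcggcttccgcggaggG
Rpsa, chr9:120129164-120129243, plus strand: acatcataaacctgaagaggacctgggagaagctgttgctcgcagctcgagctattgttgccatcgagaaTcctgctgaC
Rpsa-ps10, chr3:150073324-150073403, minus strand: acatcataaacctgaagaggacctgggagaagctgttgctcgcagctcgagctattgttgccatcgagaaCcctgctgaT

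Values are scaled counts, in which the authors divided each library's gene counts by its size factor. Reads recovered from them summed to 27242668 to 34271604 in the mutant libraries and 26615732 to 36778164 in the WT libraries. Axin1, the check of genotype, had 1721, 1985, 2203 and 2074 scaled counts in mutant embryos, against 5274, 5140, 2963 and 4884 in WT embryos (log2 fold change -1.16, SE 0.18, adjusted p = 0.00269, limma). The Axin2 transcript had 539, 303, 335 and 305 in mutant embryos and 271, 249, 310 and 236 in WT embryos (log2 fold change 0.44, adjusted p = 0.190, limma), and whether these reads come from outside a deleted part cannot be told from the labels. At an adjusted p under 0.05 with limma, all 8 epiblast markers were lower and 7 of 9 mesoderm markers higher in mutant embryos. Over all genes 7.55% were lower and 8.03% higher. Of 8 visceral endoderm markers 1 was lower, and of 10 extraembryonic ectoderm and trophoblast markers 2 were higher. Neither the epiblast nor the mesoderm shift was tested for a part in the values that follow. A 14-gene maternal decidua list was all in the table, with no gene at 0 in every library. Its transcripts summed to 41256 to 88658 in mutant libraries and 23351 to 25487 in WT libraries. With limma 9 of 13 tested members of it were higher, against 8.03% of all genes. Prl8a2, Dcn, Cryab and Gja1 did not pass (adjusted p 0.249 to 0.425, limma). Prl8a2 had 135, 479, 6283 and 6056 in mutant embryos, against 1129, 793, 21.7 and 79.3 in WT embryos. Whether these sums reflect maternal tissue was not tested. Y-linked transcripts summed to 5243 to 6248 scaled counts in the mutant libraries, against 6465, 14.2, 7369 and 0 in the WT libraries; the 6 libraries above 1000 are here called the Y-positive libraries. In RNA from whole embryos, fewer cells of a type and less RNA per cell cannot be told apart.

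The ribosomal protein genes spanned a wide range of levels. Per kilobase of annotated exon, Rpl4, of the wall of the exit tunnel, was the highest, at 23438 scaled counts in mutant embryos and 24970.0 in WT embryos. The stalk protein gene Rplp0 had 20094 per kilobase in mutant embryos and 19475 in WT embryos. The large-subunit gene Rpl8 had 11663 in mutant embryos and 11978 in WT embryos. Rps4l, also among the 5 highest, is annotated as a transcribed processed pseudogene of Rps4x and had 9477 per kilobase in mutant embryos and 12972 in WT embryos. At the low end were 5 paralogues and copies. In mutant embryos they had 71.7 (Rps27rt), 42.5 (Rpl39l), 69.7 (Rps3a2), 19.9 (Rps3a3) and 0.981 (Rpl3l, the striated-muscle form of Rpl3) per kilobase. In WT embryos they had 85.8 (Rps27rt), 91.3 (Rpl39l), 61.0 (Rps3a2), 32.6 (Rps3a3) and 8.68 (Rpl3l). All 77 genes of the large and small subunit passed the filter on low values, whereas among the paralogues Rpl3l did not. The filter kept 89 of the 90 members and 15600 genes in all.

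Between genotypes the ribosomal protein genes differed little. With limma, 1 member was higher in mutant embryos (Rps2) and 1 lower (Rpl10l) at an adjusted p under 0.05. That is 2.25% of the 89 tested members, against 15.6% of all genes tested. Over all genes 8.03% were higher and 7.55% lower. The median log2 fold change of the members was 0.00, and 79 of 89 (88.8%) lay within 0.2 of zero on the log2 scale, against 46.2% of all tested genes. At an unadjusted p under 0.05 there were 6 members, and that threshold was met by 29.5% of all genes. The 4 mutant and 4 WT values did not overlap for 3 members (Rps2, Rpl39l and Rps3a3), or 3.37%, against 22.4% of all genes. Members were also tighter among replicates, with a median within-group SD of 0.15 on the log2 scale against 0.24 over all genes. For 78 of 89 members the log2 fold change with 2 SE on either side stayed inside 0.5 in both directions. A shift common to most genes cannot be seen in values scaled to the bulk of genes.

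**Figure D1:**
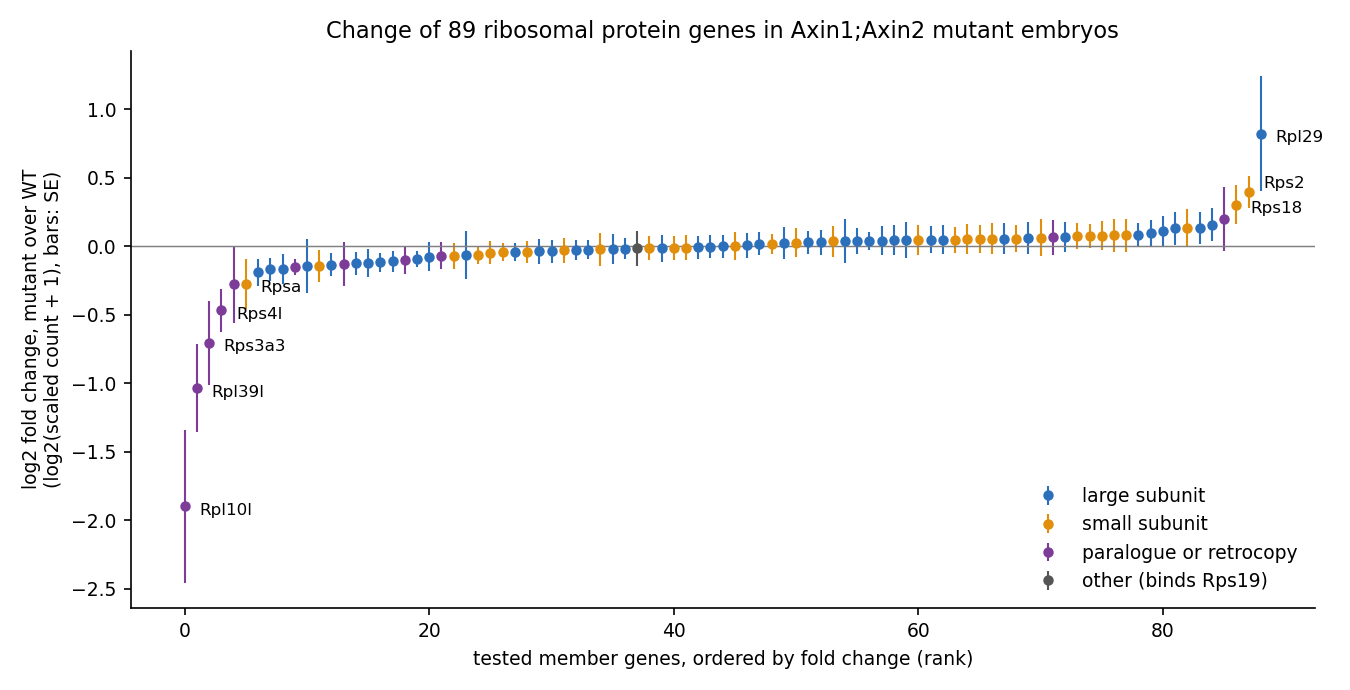
Log2 fold change of each tested ribosomal protein gene, mutant over WT, ordered by size and coloured by role, with SE bars (n = 4 libraries per genotype). Most of the 89 genes lie within 0.2 of zero, and the paralogue Rpl10l (-1.90) and the large-subunit gene Rpl29 (0.82) stand at the ends.

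Mutant replicate 4 stood apart from the other libraries. It held the highest value of 70 of the 90 members and of 65 of the 77 subunit genes, and 75 of these 77 were above the mean of the other 3 mutant libraries, by a median of 1.27-fold. The corresponding median log2 difference was 0.35 for the subunit genes and -0.02 for all genes. The summed share of the members was 1.62%, 1.59%, 2.09% and 1.70% of all scaled counts in mutant embryos, against 1.64%, 1.80%, 1.66% and 1.79% in WT embryos. The mean share was 1.75% ± 0.232 in mutant embryos and 1.72% ± 0.0850 in WT embryos (SD, n = 4 each), a difference of 0.0280 percentage points that is smaller than either SD. Without mutant replicate 4 the difference was -0.0854 percentage points, and the median log2 fold change was -0.08 for the members and -0.004 for all genes. There 16 of 89 members had an unadjusted p under 0.05 with limma. The share of all genes that did was not counted for this fit, and it was 29.5% in the main fit. The only member called was Rpsa, lower, whereas 1835 of 15252 genes were called in all. Mutant replicate 4 also had the largest decidua sum (88658, against 41256 to 63547 in the other mutant libraries). The mean log2 level of the decidua list was 8.49 to 11.4 in mutant libraries and 6.20 to 7.49 in WT libraries. With it as a covariate the median log2 fold change of the members was -0.28 and that of all genes -0.01. In that fit 1 member was called (Rpl29, higher), and 383 genes in all, against 2431 without the covariate. As the covariate does not overlap between genotypes, the fit cannot separate the list from genotype. The part of maternal tissue in the member values was not tested.

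**Figure D2:**
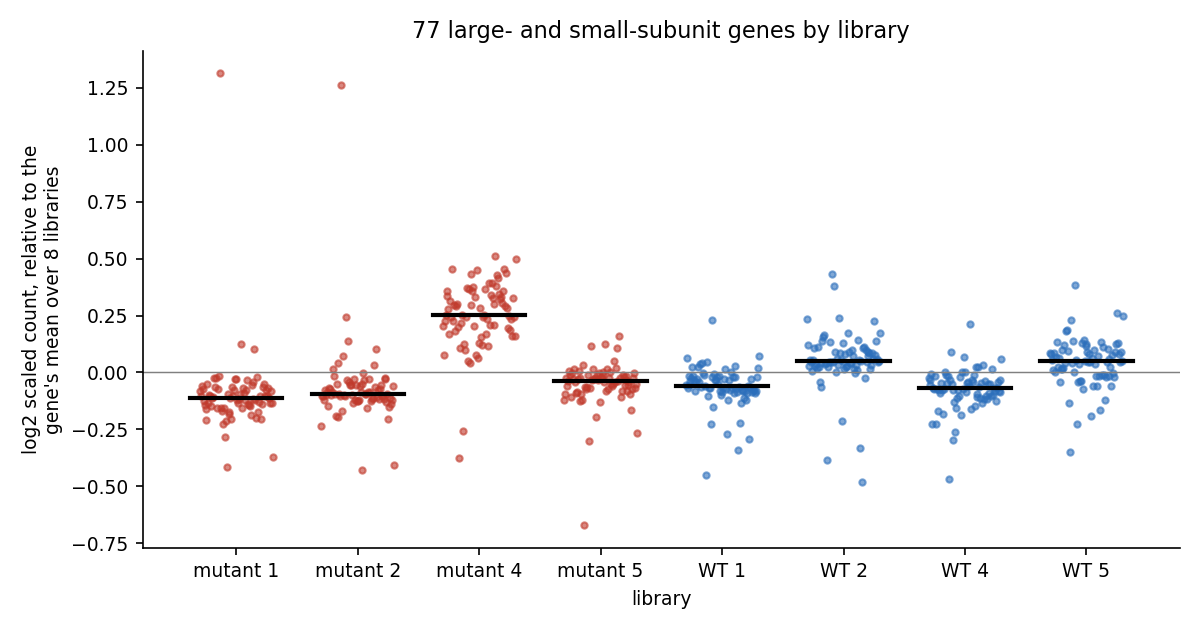
Scaled counts of the 77 subunit genes in each library on a log2 scale, relative to each gene's mean over 8 libraries; points are genes and bars medians. In mutant replicate 4 nearly all points lie above 0, and the single high points in mutant replicates 1 and 2 are Rpl29.

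Both subunits showed this pattern. Large-subunit genes summed to 0.932%, 0.900%, 1.18% and 0.975% of scaled counts in mutant embryos, against 0.936%, 1.03%, 0.948% and 1.01% in WT embryos. Small-subunit genes summed to 0.599%, 0.594%, 0.806% and 0.627% in mutant embryos, against 0.602%, 0.648%, 0.606% and 0.664% in WT embryos. The ratio of small-subunit to large-subunit sums was 0.643, 0.660, 0.683 and 0.643 in mutant embryos and 0.644, 0.632, 0.639 and 0.655 in WT embryos, so the groups overlapped. Mitochondrial ribosomal protein genes, 77 in all, summed to 0.477%, 0.495%, 0.576% and 0.507% in mutant embryos and 0.489%, 0.534%, 0.475% and 0.531% in WT embryos, also with the highest value in mutant replicate 4.

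None of the 46 large-subunit genes passed the limma test and none had an unadjusted p under 0.05; edgeR called none of them and DESeq2 called Rpl29. Of all genes, 15.6% passed with limma, 29.5% had such an unadjusted p, 15.6% passed with edgeR and 22.1% with DESeq2. Their log2 fold changes ranged from -0.19 to 0.82 with a median of 0.00. In the stalk, the protrusion that recruits elongation factors, Rplp0 had log2 fold change 0.04, Rplp1 0.06 and Rplp2 0.04. Rpl5 and Rpl11 form a particle with 5S ribosomal RNA that restrains Mdm2 and thereby stabilises p53. Rpl5 averaged 5242 ± 338 scaled counts in mutant embryos and 5660 ± 406 in WT embryos, and Rpl11 3286 ± 351 in mutant embryos and 3231 ± 138 in WT embryos (SD, n = 4 each), with log2 fold changes of -0.11 and 0.02. Rpl10, which completes the subunit late in assembly, had log2 fold change -0.12, and Rpl13a, known also from translational control in inflammation, 0.05.

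Rpl38, Rpl24 and Rpl27a are large-subunit genes with classical mouse mutants, the first known for skeletal patterning through selective translation of Hox mRNAs. Rpl38 had 1463, 1532, 1937 and 1471 scaled counts in mutant embryos, against 1662, 1989, 1663 and 1842 in WT embryos (log2 fold change -0.17, adjusted p = 0.359, limma). Mutant replicate 4 was the only mutant library within the WT range. Rpl24 averaged 612 ± 63.4 in mutant embryos and 620.1 ± 43.3 in WT embryos, and Rpl27a 1940 ± 224 in mutant embryos and 1982 ± 85.5 in WT embryos (SD, n = 4 each), with log2 fold changes of -0.02 and -0.04.

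Rpl29, a large-subunit gene whose loss in mice reduces growth, had the widest spread of the subunit genes and is described because of its values. It had 2235 and 2159 scaled counts in mutant replicates 1 and 2 and 753 and 565 in mutant replicates 4 and 5, against 658, 690, 651 and 706 in WT embryos. The 2 high mutant libraries were thus more than 2-fold above every other library, and mutant replicate 5 was the lowest of all. The log2 fold change was 0.82 with SE 0.42 (adjusted p = 0.229, limma). It was called by DESeq2 (1.08, adjusted p = 0.0255), with the decidua list as covariate (2.52, adjusted p = 0.0425) and without mutant replicates 4 and 5 (1.70, adjusted p = 0.000431), and in none of the other 21 alternatives. Its 4 annotated copies summed to 44.2 to 70.9 in mutant libraries and 42.6 to 61.6 in WT libraries. Rpl34, also noticed for its values, fell into low and high libraries in both genotypes: 1811, 2610, 2277 and 1787 in mutant embryos, against 1880, 2974, 1793 and 2872 in WT embryos. Its log2 fold change of -0.15 had SE 0.20.

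Of the 31 small-subunit genes, 1 passed the limma test, against 15.6% of all genes. Rps2, a protein near the mRNA entry channel, had 18321, 18283, 22950.5 and 19020 scaled counts in mutant embryos, against 14596, 12219, 17448 and 15684 in WT embryos. The groups did not overlap, and the log2 fold change was 0.40 with SE 0.11 (adjusted p = 0.0466, limma). The call held in 11 of 24 alternatives. It was lost without any 1 library other than WT replicate 4, with edgeR (adjusted p = 0.0572), with median centring, in the 6 Y-positive libraries, without both mutant replicates 4 and 5, and with the decidua list as covariate, while DESeq2 kept it (adjusted p = 0.0130). Rps2 lies at chr17:24718116-24721929 on the plus strand, 1.42 Mb from Axin1. Of 203 tested genes within 5 Mb of Axin1, 26 passed (12.8%, 11 higher and 15 lower), against 15.6% of all genes. The other tested members in that window, Rps10 and Rpl10a, had log2 fold changes of -0.01 and -0.12.

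Copies of Rps2 held more counts in 3 of the WT libraries than in any mutant library. Its 32 annotated copies held 0.880%, 0.755%, 0.854% and 0.704% of the scaled counts of gene and copies together in mutant embryos, against 15.8%, 7.61%, 0.856% and 4.15% in WT embryos. Rps2-ps13 on the X chromosome had 4.31, 0, 3.77 and 2.29 scaled counts in mutant embryos and 2567, 3.79, 0 and 3.55 in WT embryos, so that it was seen almost solely in WT replicate 1. Rps2-ps10 on chromosome 18 had 793 in WT replicate 2 and 485 in WT replicate 5 and at most 4.71 in any other library. Summed with its copies, Rps2 had 18484, 18422, 23148 and 19155 in mutant embryos, against 17325, 13225, 17599 and 16362 in WT embryos. These sums still did not overlap, and their log2 fold change of 0.30 did not pass (adjusted p = 0.0950, limma).

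**Figure D3:**
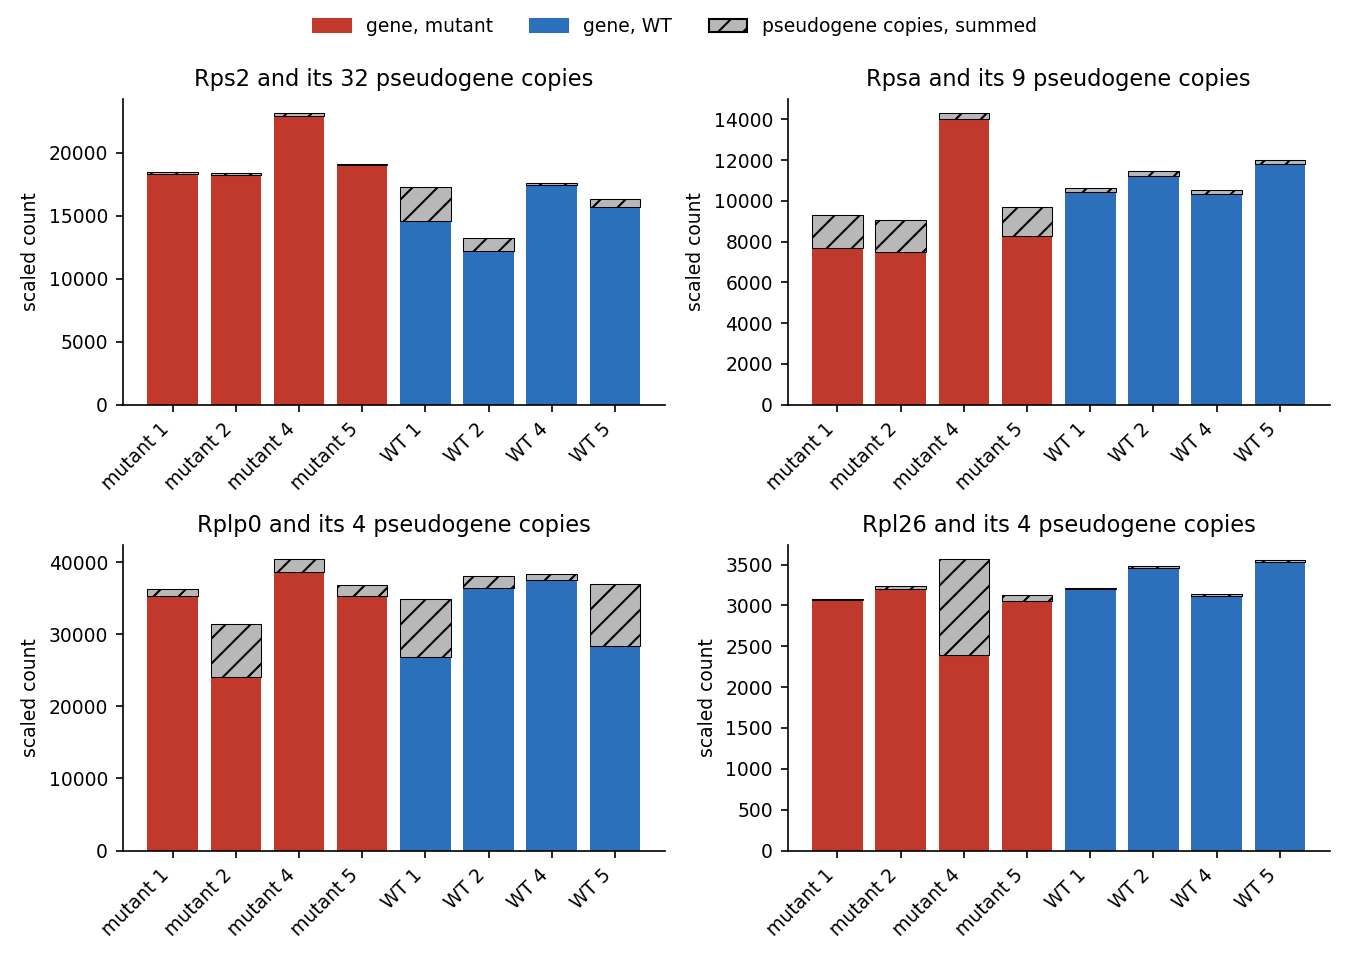
Scaled counts per library of 4 ribosomal protein genes (solid bars) with the sum of their annotated pseudogene copies stacked on top (hatched). For Rps2 the copies are visible mainly in 3 WT libraries, for Rpsa in mutant replicates 1, 2 and 5, for Rplp0 in mutant replicate 2 and WT replicates 1 and 5, and for Rpl26 in mutant replicate 4.

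Rpsa, a small-subunit protein also known as the laminin receptor precursor, had 7695, 7497, 14037 and 8284 scaled counts in mutant embryos, against 10452, 11212, 10359 and 11817 in WT embryos. Mutant replicate 4 was the highest of all libraries and the other 3 mutant libraries were below every WT library. The log2 fold change over all libraries was -0.27 (adjusted p = 0.356, limma). Without mutant replicate 4 it was -0.49 (adjusted p = 0.00348), and without mutant replicates 4 and 5 -0.53 (adjusted p = 0.00685). Its copy Rpsa-ps10 ran the other way, with 1563, 1548, 199.6 and 1398 in mutant embryos, against 145, 183, 120.4 and 130.2 in WT embryos. Rpsa-ps10 was the 1 copy of 81 tested that passed (log2 fold change 2.66, SE 0.60, adjusted p = 0.0176, limma), against 15.6% of all genes. The call was lost without mutant replicate 5, without WT replicate 4, without WT replicate 5 and in the 6 Y-positive libraries (adjusted p 0.0502 to 0.104). Gene and 9 copies together gave 9285, 9075, 14300 and 9720 in mutant embryos, against 10645, 11452, 10526 and 12005 in WT embryos (log2 fold change -0.10, adjusted p = 0.684, limma).

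The remaining small-subunit genes ranged from -0.14 to 0.30 on the log2 scale. At the top was Rps18, which is described because of its values. It had 5297, 5582, 7782 and 5869 scaled counts in mutant embryos, against 4303, 4337, 5290.2 and 5891 in WT embryos (log2 fold change 0.30, adjusted p = 0.191, limma). Rps19, Rps20 and Rps7, whose mutation in mice alters pigmentation or growth, had log2 fold changes of 0.08, 0.08 and 0.03. Rps19 averaged 6049 ± 1027 in mutant embryos and 5679 ± 311 in WT embryos, and Rps7 3936 ± 630 in mutant embryos and 3832 ± 204 in WT embryos (SD, n = 4 each), the wider mutant SD including mutant replicate 4. Rps6, the target of S6 kinase, averaged 5988 ± 554 in mutant embryos and 6170 ± 455 in WT embryos (SD, n = 4 each; log2 fold change -0.04). Rps27a, made as a fusion with ubiquitin, had log2 fold change 0.00. Rps19bp1 averaged 975 ± 144 in mutant embryos and 982 ± 118 in WT embryos (SD, n = 4 each; log2 fold change -0.01). None of 21 genes mutated in human Diamond-Blackfan anaemia passed with limma, edgeR or DESeq2, and none had an unadjusted p under 0.05 with limma. Over all genes these shares were 15.6%, 15.6%, 22.1% and 29.5%, and over the 89 tested members 2.25% passed with limma. The log2 fold changes of the 21 genes ranged from -0.19 to 0.13 with a median of 0.03.

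The 2 largest log2 fold changes among tested members were those of paralogues. Rpl10l, an autosomal retrocopy of the X-linked Rpl10 that serves the ribosome in male germ cells when the X chromosome is silent, had 18.3, 86.6, 24.5 and 40.0 scaled counts in mutant embryos, against 82.6, 270.9, 78.0 and 189 in WT embryos. Mutant replicate 2 lay within the WT range and the other 3 mutant libraries below it. WT replicates 2 and 5, with the highest values, were the libraries that are not Y-positive. In the 6 Y-positive libraries the log2 fold change was -1.16 (adjusted p = 0.313, limma), and a part of embryo sex in these values was not tested. The log2 fold change was -1.90 with SE 0.56 (adjusted p = 0.0479, limma). The call held in 12 of 24 alternatives and was lost without each single library other than mutant replicate 2, with edgeR (adjusted p = 0.0595), with array weights, in the 6 Y-positive libraries, with the decidua list as covariate and when both mutant replicates 4 and 5 were left out.

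Rpl39l, the germ-cell-enriched paralogue of the exit-tunnel protein gene Rpl39, had 42.0, 24.9, 37.7 and 36.6 scaled counts in mutant embryos, against 75.2, 114, 68.4 and 46.2 in WT embryos. The groups did not overlap, and the log2 fold change of -1.04 with SE 0.32 missed the threshold (adjusted p = 0.0592, limma). It was called in 6 of 24 alternatives, edgeR and DESeq2 among them. Rps4l had 6620, 10578, 8141 and 10409 in mutant embryos, against 10374, 14584, 11603 and 12368 in WT embryos (log2 fold change -0.47, adjusted p = 0.0811, limma; DESeq2 called it). Its parent Rps4x had log2 fold change -0.14. Rps3a3, annotated as a processed pseudogene, had 12.9, 12.0, 17.9 and 20.6 in mutant embryos, against 23.2, 29.4, 25.1 and 26.0 in WT embryos (log2 fold change -0.70, adjusted p = 0.159, limma). Rpl3l had 0, 6.45, 0 and 0 in mutant embryos and 29.7, 6.63, 11.3 and 9.47 in WT embryos, too low for the filter.

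The ratio of each paralogue to its main gene was compared within libraries for 8 pairs, with an exact permutation test, two-sided, whose smallest possible p is 0.0286. The log2 ratio of Rpl39l to Rpl39 averaged -5.01 ± 0.34 in mutant embryos and -3.86 ± 0.46 in WT embryos (SD, n = 4 each), a difference of -1.15 that reached that smallest p in the exact test (adjusted p = 0.0571). The same exact p, 0.0286, was found for Rpl36al to Rpl36a (difference -0.11), Rpl7l1 to Rpl7 (-0.16), whose product is best known from ribosome assembly, and Rps27l to Rps27 (-0.17). Rpl10l to Rpl10 differed by -1.78 and Rps27rt to Rps27 by -0.34 (exact p = 0.0857 each), Rps4l to Rps4x by -0.32 (exact p = 0.286) and Rpl22l1 to Rpl22 by 0.08 (exact p = 0.400). None of the 8 passed 0.05 after Benjamini-Hochberg adjustment. With that smallest p over 8 pairs, no pair could pass on its own, so the adjusted result cannot decide about a single pair. Of the 8 differences 7 were negative. The pairs are not independent, as Rps27l and Rps27rt share Rps27 and most subunit genes were high together in mutant replicate 4. The common sign was not tested. Over coding bases Rpl10l was 84.7% identical to Rpl10, Rpl39l 85.0% to Rpl39, Rpl36al 87.7% to Rpl36a and Rpl22l1 68.8% to Rpl22. The coding sequence of Rps27rt was identical to that of Rps27 (100%), so its reads may belong to either.

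**Figure D4:**
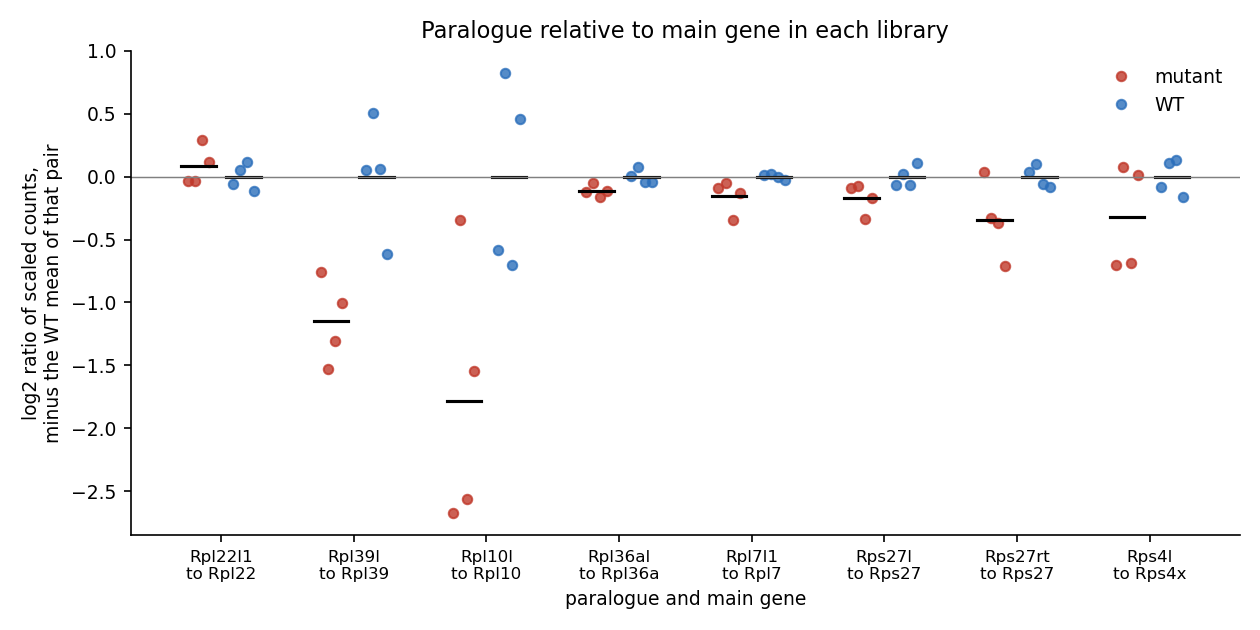
Log2 ratio of paralogue to main gene in each library, with the WT mean of the pair set to 0; points are libraries and bars means. The Rpl39l points of the 2 genotypes do not overlap, and among the Rpl10l points mutant replicate 2 is the highest mutant library.

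Copies of other members also varied from library to library. Of 28 copies that reached 100 scaled counts in some library, 12 (42.9%) differed at least 5-fold between their highest and lowest library, against 12% of all genes in the table that reached that level; these copies were picked out by their values. They were copies of 6 members, Rps2, Rpsa, Rplp0, Rpl26, Rpl15 and Rps13. The 4 copies of Rplp0 summed to 994, 7353, 1809 and 1573 in mutant embryos, against 8059, 1671, 884 and 8722 in WT embryos. Rplp0 itself had 35344, 24088, 38626 and 35283 in mutant embryos, against 26875, 36489.5, 37549 and 28322 in WT embryos, so the 3 libraries with high copies were the 3 with the lowest Rplp0. Gm15772, a copy of Rpl26 on chromosome 5, had 1140.1 in mutant replicate 4, 67.4 in mutant replicate 5, 15.7 in mutant replicate 2 and at most 6.49 in any other library. Rpl26 itself had 3063, 3207, 2399 and 3056 in mutant embryos, against 3202, 3464, 3112 and 3535 in WT embryos, and mutant replicate 4, highest for most members, was its lowest. With Gm15772 and 3 further copies added, that library had the highest Rpl26 sum (3566, against 3081 to 3240 in the other mutant libraries and 3137 to 3556 in WT libraries). For Rpl15 the 11 copies together had 344 to 364 scaled counts in mutant replicates 2 and 5 and 327 to 399 in WT replicates 1 and 5, against 31.3 to 40.5 in the other libraries. The copy Rps13-ps1 had 451 in WT replicate 5 and at most 17.3 elsewhere.

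Ribosomes are built by a separate set of nucleolar factors. Of 62 tested ribosome biogenesis genes 14 were lower in mutant embryos and 0 higher with limma. These 22.6% stand against 7.55% of all genes lower and 15.6% past the threshold in either direction. The list's median log2 fold change was -0.21. With edgeR 15 were lower (7.49% of all genes) and with DESeq2 22 (10.3% of all genes), and neither called any higher; no gene of the list had a positive fold change with an unadjusted p under 0.05 in limma. Nop56, a core protein of the box C/D particles that guide rRNA methylation, averaged 12776 ± 319 scaled counts in mutant embryos and 16315 ± 965 in WT embryos (SD, n = 4 each; log2 fold change -0.35, adjusted p = 0.00330, limma). Dkc1, which pseudouridylates rRNA, averaged 8156 ± 298 in mutant embryos and 10350.0 ± 478 in WT embryos (SD, n = 4 each; log2 fold change -0.34, adjusted p = 0.00362, limma). The nucleolar GTPase gene Gnl3 averaged 5438 ± 155 in mutant embryos and 6711 ± 281 in WT embryos (SD, n = 4 each; log2 fold change -0.30, adjusted p = 0.00619, limma). The list's count was 5 to 14 lower with 1 library left out, 2 in the 6 Y-positive libraries and 0 with the decidua list as covariate, with medians of -0.16 in both of these last fits. Over all genes those last fits called 985 and 383, against 2431 in the main fit. Epiblast markers were lower in the same embryos, and their part in this count was not tested. The difference between the biogenesis list and the ribosomal protein genes was not tested.

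In each list of this paragraph except that of Fau, 1 or 2 genes were lower, and over all genes 7.55% were. The median log2 fold changes of the lists with a lower gene were also negative. They ran from -0.09 (TOR and Myc genes) to -0.17 (RNA polymerase I), against -0.002 for all genes. Among 15 genes of RNA polymerase I and its factors, which make rRNA, 1 was lower (6.67%; Polr1e, log2 fold change -0.42, adjusted p = 0.0105, limma). Among 14 genes for chaperones and importers of ribosomal proteins 1 was lower (7.14%; Ipo5, -0.34, adjusted p = 0.0109). Among 19 genes of TOR signalling, its mRNA-binding regulators and Myc genes 1 was lower (5.26%): Mycn, a transcription factor that drives ribosome biogenesis, averaged 7440 ± 969 in mutant embryos and 11532 ± 681 in WT embryos (SD, n = 4 each; log2 fold change -0.64, adjusted p = 0.00192, limma). Other mRNAs with pyrimidine starts and elongation factors gave 1 lower of 15 (6.67%; Hnrnpa1, -0.24), initiation factors 2 lower of 30 (6.67%; Eif1ax, -0.40, and Eif5, -0.23) and genes of stalled-ribosome quality control 2 lower of 12 (16.7%; Zfp598, -0.42, and Abce1, -0.19). Of 24 alternatives the call held in 19 for Hnrnpa1, 17 for Eif1ax, 10 for Eif5, 16 for Zfp598 and 13 for Abce1. None of these 5 passed without WT replicate 4, and no initiation factor passed without WT replicate 4 or without WT replicate 5. Fau, which encodes a small-subunit protein as a ubiquitin-like fusion, had a log2 fold change of -0.02, and it neither passed with limma, edgeR or DESeq2 nor had an unadjusted p under 0.05 with limma.

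Among 17 genes of p53 and its targets 1 was higher and 1 lower (11.8% together, against 15.6% of all genes). The cell cycle inhibitor gene Cdkn1a averaged 1685 ± 544 scaled counts in mutant embryos and 188 ± 55.7 in WT embryos (SD, n = 4 each; log2 fold change 3.15, SE 0.26, adjusted p = 0.000149, limma), and it passed in all 24 alternatives. The nuclease gene Aen had log2 fold change -0.27 (adjusted p = 0.0491, limma), and its call was lost in 13 of 24 alternatives. Of 77 mitochondrial ribosomal protein genes 1 was higher (Mrps6, 0.50, adjusted p = 0.0230) and 3 were lower, among them Mrps27 (-0.25) and Mrps5 (-0.25), with a median of 0.00 (limma). These 5.19% stand against 15.6% of all genes, and Mrps6, Mrps27 and Mrps5 did not pass without WT replicate 1.

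**Figure D5:**
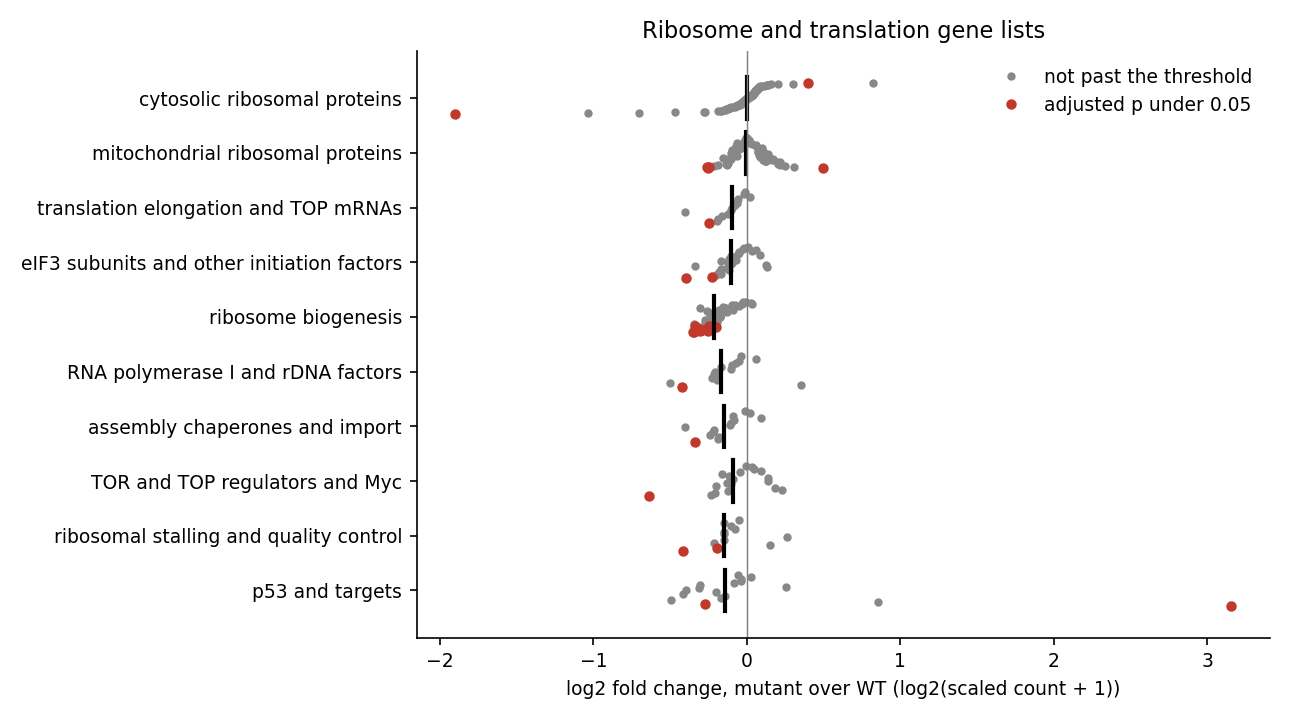
Log2 fold changes, mutant over WT, of the ribosomal protein genes and 9 related gene lists; points are genes, bars medians and red points passed an adjusted p of 0.05 (limma). The medians of both ribosomal protein sets lie at 0.00, that of ribosome biogenesis at -0.21 and those of all other lists between -0.09 and -0.17. The red point at 3.15 is Cdkn1a.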

How the data were processed

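Whole-embryo RNA was amplified with the SMART-Seq v4 kit, per the labels' protocols, from 1.9 to 2 ng of RNA over 12 cycles. DESeq (no version), HTSeq 0.5.3, STAR 2.5.0a and cutadapt 1.6 with build mm10 are named in the submitters' processing notes; their settings, the annotation release and the handling of multiply mapping reads are not stated. The deposited signal holds the authors' gene counts after division by a size factor for each library. All values were whole multiples of 1 step per library (100% within 0.01 read), so whole reads were recovered for edgeR 4.0.16 and DESeq2 1.42.0, which called 2430 and 3438 genes against 2431 with limma. These PCR reads carry no molecular identifiers.

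The 8 libraries were compared with limma 3.58.1 (R 4.3.3) on log2(scaled count + 1), trended prior, two-sided, Benjamini-Hochberg over 15600 genes with at least 10 in at least 4 libraries; this scale understates changes of low genes. The script was tested on simulated data. Coordinates are from GENCODE M21 by gene ID (19878 of 19950 matched), promoters from RefSeq GRCm38.p6. Members and lists were chosen with earlier results of these data known. Named are members past the threshold, paralogue pairs, a fixed set of members, the 5 highest and 5 lowest per kilobase and up to 3 called genes per list; Rpl26, Rpl29, Rpl34, Rps18 and the pseudogene copies were added for their values. A few results under this rule are not reported here. Alternatives were pseudocounts of 0.5 and 5, other filters and scalings, array weights, edgeR, DESeq2, the replicate block, libraries left out, a decidua covariate and, added after seeing the data, members summed with their copies.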

Additional observations from a re-analysis of the deposited data

Results flagged for a closer look

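For 67 genes (those named by rule, those added for their values and pseudogene copies) and the summed share, 136 groups of 4 libraries of 1 genotype were looked at. In 14 of them the gap between 1 library and its nearest neighbour exceeded Dixon's critical share of the group's range. That share is set so that chance alone passes it in about 1 in 20 groups picked without regard to their values. Here some genes and copies were added for their uneven values, and genes of 1 library vary together, so the count cannot be compared with that rate. In 9 of the 14 that library was mutant replicate 4. It had 2273 scaled counts of Rpl27a (1797 to 1860.5 in the other mutant libraries), 1937 of Rpl38 (1463 to 1532), 1391 of Rpl39 (1057 to 1096), 7579 of Rps19 (5371 to 5677), 22950.5 of Rps2 (18283 to 19020), 5486 of Rps20 (3793 to 4057) and 14037 of Rpsa (7497 to 8284). Its Rpsa-ps10 value was low, at 199.6 (1398 to 1563). The Rpl26 copy Gm15772 had 1140.1 there (5.39 to 67.4 in the other mutant libraries). In the other mutant libraries the cases were Rpl3l, with 6.45 in mutant replicate 2 and 0 in the rest, and Axin2, with 539 in mutant replicate 1 (303 to 335 in the rest). Among WT libraries, Axin1 was low in WT replicate 4, at 2963 (4884 to 5274 in the rest), Rps2-ps13 had 2567 in WT replicate 1 (0 to 3.79), and Rps13-ps1 had 451 in WT replicate 5 (15.2 to 17.3).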

How the results depend on the processing

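Under 24 alternatives, 41 named members gave 982 comparisons, of which 25 lost and 14 gained a call; 88 changed sign with a call in neither fit, and none reversed a call. For 21 other named genes 95 of 504 comparisons lost the call and none reversed. The count of members higher was 0 with median centring, edgeR, the 6 libraries with Y-linked transcripts and members summed with copies, 2 with DESeq2, and 0 to 1 with 1 library left out. The count lower was 0 with the decidua covariate and in the Y-linked subset, 2 with no filter, quantile normalization and the replicate block, 3 with median centring and DESeq2, and 0 to 1 with 1 library left out. Median centring moved the median of all genes to -0.09. Lower biogenesis genes numbered 24 with median centring, 22 with DESeq2, 6 with the block, 7 without both mutant replicates 4 and 5, 2 in the Y-linked subset, 0 with the decidua covariate and 5 to 14 with 1 library left out. Calls over the 10 lists (28) were 50 with median centring, 47 with DESeq2, 10 with the block, 14 without both mutant replicates 4 and 5, 5 in the Y-linked subset, 2 with the decidua covariate and 11 to 24 with 1 library left out. Over all genes the calls also moved, from 2431 in the main fit to 2619 with median centring and 3438 with DESeq2. They were 1699 with the block, 1320 without both mutant replicates 4 and 5 and 985 in the Y-linked subset. With the decidua covariate they were 383, and with 1 library left out 1543 to 2249. The cause of these differences was not tested. Same-numbered libraries did not deviate together (correlations -0.19 to -0.04), so numbers were not taken as pairs; the replicate block called 1699 genes and added Rps4l. No paralogue ratio passed under any alternative, but fewer libraries cannot reach the threshold. The difference in summed share ranged from -0.0854 to 0.0803 percentage points with 1 library left out. Depth limits Rpl3l, Rps3a2, Rps3a3, Rps27rt and Rpl39l, whose values are under 115 scaled counts.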
